A study of Mus musculus with 4 samples.

Results

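The miR-148/miR-152 family of the mouse consists of mmu-miR-148a-3p, mmu-miR-148b-3p and mmu-miR-152-3p, which share the same seed, the bases near the 5′ end through which a miRNA finds its targets. The members were taken by name and are 3 of the 1979 mature miRNAs in the small RNA table. Each of the 3 names was found once in the table. All 3 lay above the minimum used here to call a miRNA expressed, a mean of 10 RPM (reads per 1000000 counts of a library) over the 4 libraries, which 251 miRNAs passed.

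Small RNA was sequenced from resting bone marrow-derived macrophages (BMDMs), cells grown from mouse bone marrow with the growth factor M-CSF. There were 2 wild-type libraries (WT A and WT B), 1 library from homozygous mir-146a knock-out cells (KO), in which the pre-miRNA sequence is removed, and 1 from homozygous 3′F cells. The 3′F allele keeps the seed of miR-146a and exchanges part of its 3′ region with the opposite strand of the hairpin. The mice were 6 to 7 months old on a mixed 129 and B6 background, and the wild-type animals came from crosses of heterozygous mice of the mutant lines. The labels name 3 mice per genotype without saying whether a library pools them, and which line gave which WT library is not given in the sources used here. All cultures received M-CSF at 10 ng/ml for 8 to 9 days at 85000 cells per cm2, with a change of medium on day 3, and then 16 h without the bacterial product LPS. Both mutant alleles were made in embryonic stem cells, and the selection cassette was excised by Cre recombinase. The libraries held 17073442 (WT A), 11410940 (WT B), 19087640 (KO) and 16194595 (3′F) counts. Levels of miR-146a-5p matched the labels, with 6253 RPM for WT A, 5485 RPM for WT B, 13.4 RPM for KO and 6.64 RPM for 3′F. That line holds the wild-type sequence, so it does not measure the altered miRNA of 3′F cells. A separate line named miR-146swap-5p was at 10.6 RPM (171 counts) in 3′F and listed at 0 in the other libraries. The study cautions that ligation efficiency varies with sequence, so this level cannot be set against that of wild-type miR-146a-5p. By qRT-PCR, it reports similar levels of both miRNAs in most tissues and cell populations.

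A mature miRNA is loaded into an Argonaute protein and lowers the output of mRNAs whose 3′ UTRs pair with its seed. Members of a family share a seed and so can act on overlapping sets of mRNAs, whereas the rest of the sequence differs between them. In antigen-presenting cells this family is known for dampening responses to Toll-like receptor (TLR) ligands by acting on Camk2a, a subunit of a calcium-dependent kinase, and in other cells for acting on Dnmt1, the maintenance DNA methyltransferase. miR-146a, the miRNA altered in these mice, is itself a well-known brake on TLR signalling through Irak1 and Traf6.

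The mature sequences from RefSeq (GRCm38.p6), 5′ to 3′, show what the members share, with the seed (bases 2 to 8) in capitals.
mmu-miR-148a-3p: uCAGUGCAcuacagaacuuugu
mmu-miR-148b-3p: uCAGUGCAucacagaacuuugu
mmu-miR-152-3p: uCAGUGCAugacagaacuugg
The seed CAGUGCA pairs with UGCACUG in an mRNA. Counting positions from 1 at the 5′ end, miR-148b-3p differed from miR-148a-3p at C9U and U10C and was the same at 20 of 22 positions. Against miR-148a-3p, miR-152-3p carried C9U, U10G and U20G and matched at 18 of 21 positions. Against miR-148b-3p it carried C10G and U20G and matched at 19 of 21 positions. The differences between members thus fell at bases 9 and 10 and near the 3′ end, and the read of one member can be told from another only through these bases or its length. Of the 1679 miRNAs of the table that had a RefSeq sequence, 3 held CAGUGCA at bases 2 to 8, and these were the members.

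The opposite arms of the same hairpins, the 5p strands, are shown because they give a readout that the choice of members did not use.
mmu-miR-148a-5p: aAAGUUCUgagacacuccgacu
mmu-miR-148b-5p: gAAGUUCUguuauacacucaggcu
mmu-miR-152-5p: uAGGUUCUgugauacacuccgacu
The 5p strands of mir-148a and mir-148b had the same bases 2 to 8, AAGUUCU, and that of mir-152 had AGGUUCU, so the 5p strands do not form 1 seed family with each other.

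The 3 hairpins lie on different chromosomes (GRCm38, GENCODE vM21). Mir148a (ENSMUSG00000065505.1, chr6:51269812-51269910, minus strand, 99 bases) lies in no annotated host gene, and the nearest gene was the lincRNA Gm32479, 13621 bp away on the same strand. Mir148b (ENSMUSG00000065560.1, chr15:103285125-103285221, plus strand) lies in intron 1 of Copz1 on the same strand, in both of its coding transcripts. Mir152 (ENSMUSG00000065515.1, chr11:96850393-96850465, plus strand, 73 bases) lies in intron 1 of Copz2, again on the same strand and 523 bp from the start of the gene. Copz1 and Copz2 are paralogs that encode zeta subunits of the COPI coat, which carries vesicles within the early secretory pathway. The members therefore have separate transcription units, with paralogous hosts for miR-148b and miR-152.

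The family was abundant in every library, and miR-148a-3p and miR-148b-3p made up most of it. miR-148a-3p, from the intergenic hairpin, had a level of 4712 RPM for WT A and 4816 RPM for WT B, with 4607 RPM for KO and 5321 RPM for 3′F. miR-148b-3p was at 4544, 4535, 5488 and 4873 RPM in the same order. Both ranked between 21st and 28th of all miRNAs in each library. miR-152-3p was lower, with 859.1 RPM for WT A, 828.4 for WT B, 1301 for KO and 905.4 for 3′F, ranking between 50th and 67th. Over the WT libraries, the means were 4764 ± 73.2 RPM for miR-148a-3p, 4539 ± 6.22 RPM for miR-148b-3p and 843.7 ± 21.7 RPM for miR-152-3p (SD, n = 2). The order was miR-148a-3p, miR-148b-3p, miR-152-3p in WT A, WT B and 3′F, and in KO miR-148b-3p stood above miR-148a-3p. Levels are compared per molecule, since the members are 21 or 22 bases long, but adapter ligation during library construction favours some sequences, so ratios between different miRNAs are less secure than ratios of 1 miRNA between libraries.

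**Figure D1:**
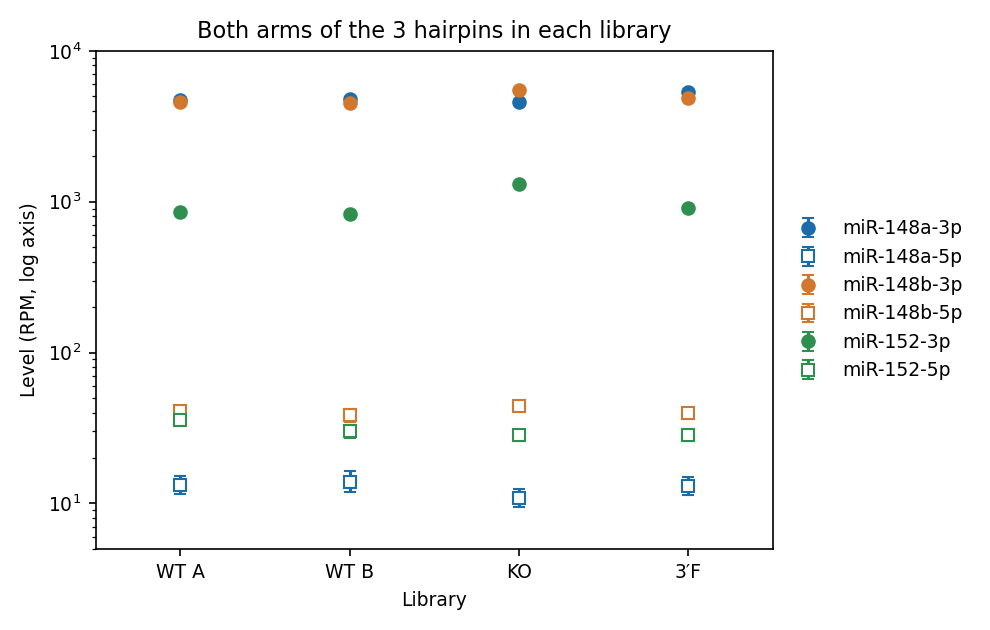
Level (RPM, log axis) of both arms of mir-148a, mir-148b and mir-152 in the 4 libraries, with filled circles for the 3p arm, open squares for the 5p arm and bars for 95% Wilson intervals, which cover counting error only. The 3p arms stand far above the 5p arms, and miR-152-3p has its highest point, 1301 RPM, in KO.

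Summed over the 3 members, the family reached 10115 and 10179 RPM in the WT libraries (A and B), 11396 RPM for KO and 11100 RPM for 3′F. That is 1.01%, 1.02%, 1.14% and 1.11% of each library. For scale, the most abundant miRNA in every library, miR-21a-5p, took 37.9%, 34.1%, 33.4% and 35.4%. Both mutant libraries lay above both WT libraries in the family sum, KO by 1.13-fold and 1.12-fold over WT A and WT B, and 3′F by 1.10-fold and 1.09-fold. Each mutant is represented by 1 library, so these differences were neither replicated nor tested. The WT pair differed by 0.01 on the log2 scale, against 0.17 for KO and 0.13 for 3′F from the WT mean. That small gap held for the deposited RPM. The sums of the WT libraries were 1.09-fold apart with TMM factors, 1.07-fold with DESeq2 size factors and 1.05-fold with miR-21a-5p left out of the library total, and KO then stood 1.06-fold, 1.12-fold and 1.05-fold over the higher of them, and 3′F 1.10-fold, 1.11-fold and 1.06-fold, so which mutant was higher depended on the scaling.

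The sums of both mutants were 1.03-fold apart, but the members gave unequal parts of the difference from wild type. In KO, the sum was 1249 RPM above the WT mean, made of 949 RPM from miR-148b-3p, 457.6 RPM from miR-152-3p and -157 RPM from miR-148a-3p. In 3′F, the sum was 952 RPM above the WT mean, of which miR-148a-3p gave 557 RPM, miR-148b-3p 334 RPM and miR-152-3p 61.7 RPM. The member that gave the most in 3′F was thus the one that lay below the WT mean in KO.

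Ratios to wild type are given as differences of log2(RPM + 1) from the average WT library. miR-152-3p was 1.51-fold over WT A and 1.57-fold over WT B in KO, a log2 difference of 0.62, against -0.05 between WT B and WT A. It was the only member past 1.5-fold from each WT library in KO, 1 of 3 higher and 0 of 3 lower, where 5.18% of the 251 expressed miRNAs were that much higher and 6.37% that much lower. The value lay just past the threshold, and the call did not hold under every scaling of the libraries. Over the higher WT library it was 1.42-fold with edgeR's TMM factors and 1.41-fold with miR-21a-5p left out of the library total, but 1.51-fold with DESeq2's size factors and 1.54-fold with 1 line per miRNA in the total. The gap between the WT libraries was wider too, 1.14-fold with TMM factors, 1.11-fold with DESeq2 size factors and 1.10-fold without miR-21a-5p, against 1.04-fold for the deposited RPM. Of the 13 miRNAs called higher, 3 had a WT mean at or above that of miR-152-3p, itself included, and the others were miR-146b-5p and miR-125a-5p. miR-152-3p ranked 62nd in WT A and 67th in WT B. Among miRNAs at or above its level, these 3 were thus a share near the 5.18% of all expressed miRNAs.

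miR-148b-3p was 1.21-fold over both WT libraries in KO (log2 difference 0.27), while the WT libraries were almost level. Under the other 4 scalings it stayed above both WT libraries, by 1.13-fold to 1.22-fold over the higher one, though the WT libraries themselves were then up to 1.10-fold apart. miR-148a-3p did not share this direction in KO. It was 0.978-fold of WT A and 0.957-fold of WT B, a log2 difference of -0.05, and with DESeq2's size factors its KO level fell between the WT libraries. Counting any size, 2 of 3 members were higher than both WT libraries in KO and 1 was lower, where 37.8% of expressed miRNAs were higher and 39.4% lower. These counts are too few, against such a background, to set the family apart.

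**Figure D2:**
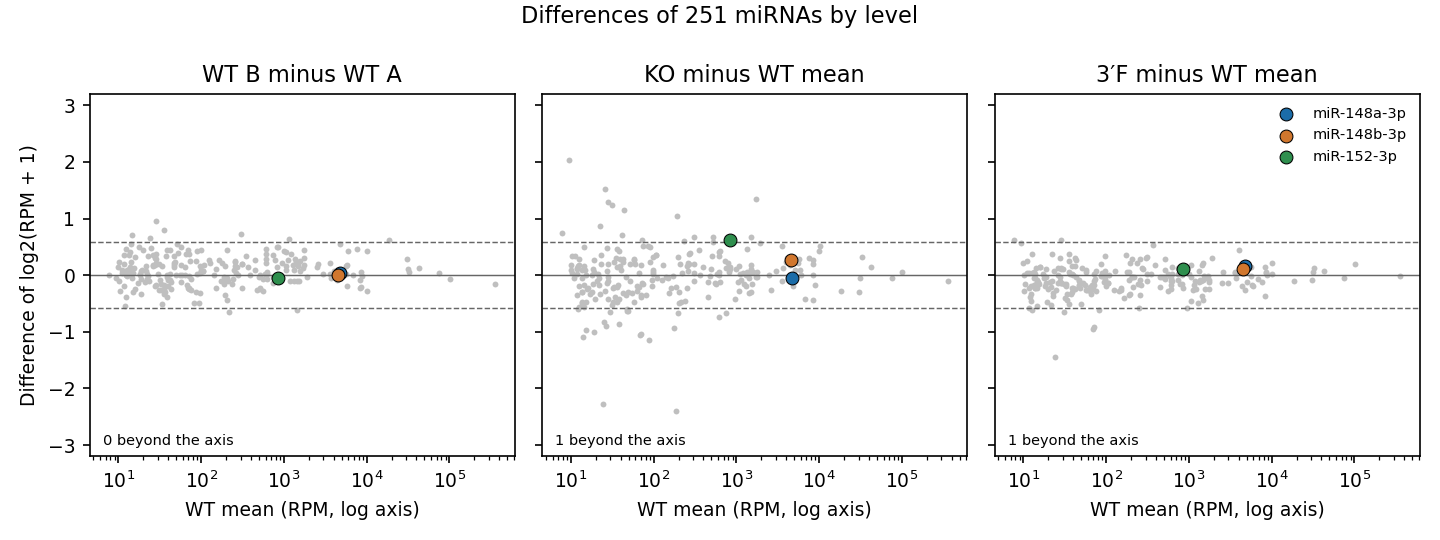
Difference of log2(RPM + 1) against WT mean level (RPM, log axis) for the 251 expressed miRNAs, WT B from WT A on the left, KO from the WT mean in the middle and 3′F from the WT mean on the right, with dashed lines at 1.5-fold and the family members coloured; miR-146a-5p lies beyond the axis in both mutants. In KO the members spread out from -0.05 to 0.62, whereas in 3′F they lie between 0.10 and 0.16.

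In 3′F all 3 members were slightly higher than both WT libraries. miR-148a-3p was 1.13-fold over WT A and 1.10-fold over WT B, a log2 difference of 0.16. miR-148b-3p was 1.07-fold over both (0.10), and miR-152-3p was 1.05-fold and 1.09-fold over WT A and WT B (0.10). None of the 3 members reached 1.5-fold in 3′F, where 0.797% of expressed miRNAs were that much higher and 1.99% that much lower. At any size, 3 of 3 were higher and 0 of 3 lower, where 22.7% of expressed miRNAs were higher and 44.2% lower. They were above both WT libraries in 3′F under each of the 4 other scalings as well. Some of these margins were smaller than the gap between the WT libraries. With miR-21a-5p left out of the total, miR-152-3p was 1.01-fold over the higher WT library and miR-148b-3p 1.03-fold. The WT libraries were then 1.10-fold and 1.06-fold apart for these miRNAs. For miR-148a-3p, 3′F was 1.09-fold over the higher WT library, and the WT libraries were 1.04-fold apart. In the deposited RPM, the median absolute difference between WT B and WT A over the expressed miRNAs was 0.18 on the log2 scale. The members themselves then differed by 0.03 (miR-148a-3p), -0.0028 (miR-148b-3p) and -0.05 (miR-152-3p) between WT B and WT A.

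miR-148a-3p was beyond both WT libraries in opposite directions in KO and 3′F, 1 of 3 members, as were 13.5% of expressed miRNAs. The comparisons with KO and with 3′F share the WT libraries. Set directly against each other, KO stood at 0.866-fold of 3′F for miR-148a-3p, 1.13-fold for miR-148b-3p and 1.44-fold for miR-152-3p.

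The median log2 difference of all 251 expressed miRNAs was 0.01 in KO and -0.08 in 3′F, and 90% of them lay from -0.79 to 0.65 in KO and from -0.51 to 0.30 in 3′F. By that difference, miR-152-3p was the 14th highest of 251 in KO, miR-148b-3p the 53rd and miR-148a-3p the 142nd. In 3′F they were the 52nd, the 51st and the 33rd. Taken relative to the median of all expressed miRNAs, the members' differences were -0.06, 0.26 and 0.62 in KO and 0.24, 0.18 and 0.18 in 3′F, for miR-148a-3p, miR-148b-3p and miR-152-3p. They moved by less than 0.01 between scalings, but centring on the median removes a shift of the whole library by construction. This is therefore no test of their stability. There were 46 other miRNAs within 2-fold of the WT level of miR-152-3p, and 2 of them had a larger KO difference than its 0.62. Of the 23 miRNAs within 2-fold of miR-148b-3p, 4 exceeded its 0.27 in KO, led by let-7c-5p at 0.51. Of the 23 near miR-148a-3p, 16 were higher than it in KO, but 1 was higher than its 0.16 in 3′F.

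The composition of the family does not depend on how libraries are scaled, since each share is taken within a library. miR-148a-3p held 46.6% and 47.3% of the family counts in the WT libraries, A first, 40.4% in KO and 47.9% in 3′F. miR-148b-3p held 44.9%, 44.5%, 48.2% and 43.9%. miR-152-3p held 8.49%, 8.14%, 11.4% and 8.16%. KO stood apart from the other 3 libraries in all 3 shares, and for miR-152-3p its 95% Wilson interval of 11.3% to 11.6% lay above the highest upper bound elsewhere, 8.63% in WT A. The 3′F shares were within 1 percentage point of the WT means, which were 46.95 ± 0.512%, 44.7 ± 0.261% and 8.32 ± 0.251% (SD, n = 2). The ratio of miR-148b-3p to miR-148a-3p was 0.964 for WT A, 0.942 for WT B and 0.916 for 3′F, and 1.19 for KO (interval 1.18 to 1.20). Intervals cover counting error only, and cultures vary beyond it. For the share of miR-152-3p, the intervals of WT A (8.36% to 8.63%) and WT B (7.98% to 8.30%) did not overlap either.

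**Figure D3:**
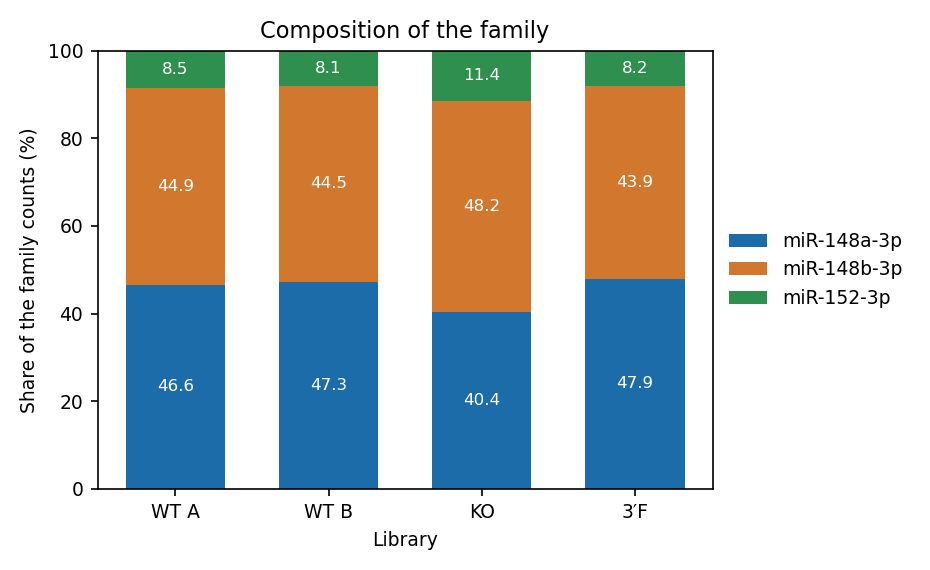
Share (%) of each member in the family counts of the 4 libraries, as stacked bars. miR-152-3p makes up 11.4% of the family in KO and between 8.14% and 8.49% in the other libraries.

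Ratios of miR-152-3p to the other members were also highest in KO. Against miR-148a-3p, miR-152-3p stood at 0.182 for WT A, 0.172 for WT B, 0.282 for KO and 0.170 for 3′F. Against miR-148b-3p, it stood at 0.189, 0.183, 0.237 and 0.186. The gap between the abundant members and miR-152-3p was therefore smallest in KO, and 3′F lay close to the WT libraries.

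Some reads were shared out between the members when they were counted. In WT A, the counts of miR-148a-3p and miR-152-3p ended in 0.5, in WT B those of miR-148b-3p and miR-152-3p did, in KO all 3 ended in 0.33, and in 3′F those of miR-148a-3p and miR-152-3p ended in 0.5. The fractions added to a whole number in every library within 0.01, as it would if these reads were shared only among the members. Whether reads were also shared with other miRNAs was not tested. How many reads were split is not given by the files. The counts of the 5p strands were whole in every library.

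The 5p strands were present at far lower levels than the 3p strands, so the 3p strand was the main product of each hairpin. miR-148a-5p reached 13.2 and 13.9 RPM in the WT pair, 10.9 RPM in KO and 13.0 RPM in 3′F, from 226, 159, 208 and 211 counts. miR-148b-5p was at 40.9, 38.3, 44.5 and 39.5 RPM. miR-152-5p was at 36.0, 29.97, 28.3 and 28.6 RPM. miR-152-5p was thus below miR-148b-5p in every library, by a smaller factor than that between their 3p partners.

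In KO, miR-152-5p did not move in the direction of miR-152-3p. Its log2 difference from the WT mean was -0.21 in KO and -0.19 in 3′F, below both WT libraries, which were themselves -0.26 apart (WT B minus WT A). With DESeq2 size factors both mutants fell between the WT libraries, and with TMM factors 3′F did. The 5p share of the mir-152 hairpin was 4.02% for WT A (95% Wilson interval 3.72% to 4.34%) and 3.49% for WT B (3.15% to 3.87%). It was 2.13% for KO (1.96% to 2.32%) and 3.06% for 3′F (2.80% to 3.35%). The interval of KO did not overlap that of any other library. The 3p strand was 23.9-fold and 27.6-fold above the 5p strand in WT A and WT B, 45.9-fold in KO and 31.7-fold in 3′F.

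The arms of the other hairpins shifted less. For mir-148b, the 5p share was 0.893%, 0.837%, 0.804% and 0.803% in WT A, WT B, KO and 3′F. For mir-148a it was 0.280%, 0.288%, 0.236% and 0.244%. Each of the 3 hairpins had a lower 5p share in both mutant libraries than in either WT library, though for mir-148a and mir-148b the intervals of KO and WT overlapped. Among the 78 hairpins with at least 100 counts on both arms in every library, 28.2% likewise had a lower ratio of minor to major arm in both mutants than in either WT library. Across these hairpins, the log2 ratio of minor to major arm in mir-152 had the lowest KO value, -0.84, where the median was -0.07 (-0.06 in 3′F) and 90% of hairpins lay from -0.60 to 0.56. Those of mir-148a and mir-148b were -0.27 and -0.11, and in 3′F the values were -0.30, -0.22 and -0.11 for mir-152, mir-148a and mir-148b. Between WT B and WT A, 95% of hairpins differed by at most 0.57, and mir-152 by -0.21. This measure is also free of library scaling, but it contains the KO value of miR-152-3p itself.

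**Figure D4:**
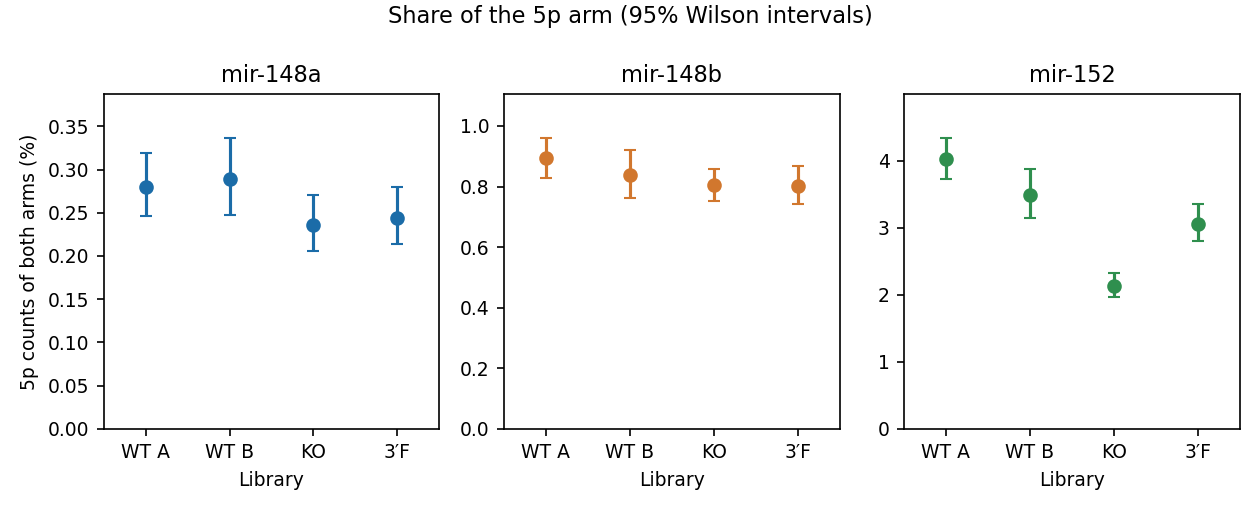
Share (%) of the 5p arm in the counts of both arms for mir-148a, mir-148b and mir-152 in the 4 libraries, with 95% Wilson intervals and a separate axis for each hairpin. In mir-152 the share is 2.13% in KO and between 3.06% and 4.02% in the other libraries.

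The miRNAs whose pattern over the 4 libraries was most like that of a member differed between members. Likeness was the Euclidean distance between log2(RPM + 1) values, each centred on its own mean. For miR-148a-3p they were miR-22-3p (distance 0.0847), miR-7059-5p (0.0970) and miR-30d-5p (0.109). For miR-148b-3p they were miR-532-5p (0.0317), let-7g-5p (0.0566) and miR-27a-3p (0.0712). miR-532-5p was at 4103, 4085, 5076 and 4391 RPM in WT A, WT B, KO and 3′F, a profile near to that of miR-148b-3p in level as well. For miR-152-3p they were miR-125b-5p (0.0505), miR-192-5p (0.127) and miR-125a-3p (0.173). miR-125b-5p was at 514.2, 515.1, 772.8 and 549.6 RPM, and like miR-152-3p it reached the 1.5-fold threshold in KO only narrowly. No member was among the nearest miRNAs of another, with distances of 0.300 between miR-148a-3p and miR-148b-3p, 0.604 between miR-148a-3p and miR-152-3p and 0.306 between miR-148b-3p and miR-152-3p. With 4 libraries, these distances describe a profile and no more.

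Of 16 miRNAs listed as known regulators of TLR or NF-kB signalling, 11 were expressed. In KO, miR-146b-5p, miR-125a-5p and miR-125b-5p exceeded each WT library by 1.5-fold or more and miR-146a-5p and miR-132-3p were that much lower, the former being the deleted miRNA, 3 and 2 of 11 where the shares of all expressed miRNAs were 5.18% and 6.37%, with a median log2 difference of 0.04. The miR-125 calls lay at the threshold. Over the higher WT library, miR-125a-5p was 1.51-fold and fell to 1.49-fold with miR-21a-5p left out of the total, and miR-125b-5p was barely past 1.5-fold and missed the threshold with TMM factors (1.41-fold), with DESeq2 size factors and without miR-21a-5p (1.40-fold). In 3′F, 0 of 11 were higher and the 1 called lower was the line of wild-type miR-146a-5p, whose sequence the allele replaces, with a median of -0.02. miR-155-5p, a miRNA that rises in activated macrophages, was at 71.3, 70.3, 55.2 and 62.7 RPM, so each abundant member of the miR-148/miR-152 family stood far above it in resting cells. Of the miR-29 family, which is known to act on DNA methyltransferase mRNAs, 2 of 3 members were expressed and 0 were called in either mutant, with 6.37% of all expressed miRNAs called lower in KO and 1.99% in 3′F. miR-29a-3p was at 1288, 1381, 1379 and 1221 RPM. miR-29b-3p was below both WT libraries in both mutants, at 40.1, 31.7, 25.4 and 24.6 RPM.

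Another group of miRNAs carries the same 7 bases 1 position earlier, at bases 1 to 7, and so has a different seed. It was measured because its members resemble the family at the 5′ end. There were 7 among the 1679 miRNAs with a sequence, and together they reached 30.8, 31.3, 27.7 and 25.1 RPM, at most 0.307% of the family sum. miR-130b-3p led with 20.9, 22.0, 21.8 and 18.4 RPM, miR-301a-3p was at 9.25, 8.50, 5.45 and 6.30 RPM, and 4 were listed at 0 in every library.

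mir-152 lies on chromosome 11, as does mir-146a (chr11:43374397-43374461), the locus altered in the mutants, 53.5 Mb away. Of the 25 expressed miRNAs located only on this chromosome, miR-152-3p was the 1 called higher in KO and 4 were called lower. Over all expressed miRNAs, 5.18% were called higher and 6.37% lower. The 4 were the deleted miR-146a-5p, miR-132-3p, miR-212-5p and miR-451a, an erythroid marker that was also lower in 3′F. The 25 had a median log2 difference of -0.11, against 0.02 over all 228 located miRNAs. Whether sequence linked to the altered locus plays a part in these values was not tested.

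Markers of other cell types were measured in the same libraries. Myeloid and blood cell miRNAs were abundant, with 4 of 5 expressed and a summed level of 3641, 2824, 3054 and 2849 RPM in WT A, WT B, KO and 3′F. The most abundant of them on average, miR-223-3p, was at 1574, 1466, 1636 and 1503 RPM, and miR-142a-3p, which stood above it in WT A, was at 1721, 1121, 1115 and 1071 RPM, so markers of the labelled cell lineage were present. Erythroid miRNAs moved with the mutants. Of 5, 3 were expressed, and all 3 were at least 1.5-fold lower than both WT libraries in KO and in 3′F, where 6.37% and 1.99% of all expressed miRNAs were, with summed levels of 170.6, 160.5, 70.5 and 80.7 RPM. miR-486b-5p led with 76.6, 64.5, 33.8 and 36.96 RPM, and miR-486a-5p was at 74.1, 63.5, 32.3 and 35.2 RPM. These 2 may share reads, so they may not be separate measurements. miR-451a, the defining one, was at 18.7, 29.97, 4.09 and 8.03 RPM. Lymphoid miRNAs (0 of 2 expressed) summed to 2.99, 2.80, 2.51 and 1.54 RPM. Stromal or smooth muscle miRNAs (0 of 6 expressed) summed to 10.9, 11.5, 7.77 and 7.99 RPM. Of these, miR-143-3p was at 4.74, 4.91, 2.10 and 2.22 RPM, miR-199a-3p at 3.18, 3.71, 3.63 and 3.21 RPM, and miR-145a-5p was listed at 0 in KO and 3′F. Of the endothelial miRNAs, 1 of 2 was expressed, miR-126a-3p, at 10.7, 9.82, 13.2 and 10.3 RPM. All of these lists except the myeloid one summed to less than the lowest level of miR-152-3p, 828.4 RPM. The part of other cells in the family's differences was not tested, and in these bulk cultures fewer cells of a type and less RNA per cell cannot be told apart.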

How the data were processed

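Small RNA libraries from resting BMDMs were prepared with a NEBNext small RNA kit. For every line the authors deposited an estimated count, often fractional, and an RPM value, each count divided by the sum over all 2129 lines of its library. The submitters' processing notes name cutadapt 1.8.3, and the aligner, counter and genome build are not given in the sources used here. Recomputed RPM differed from the deposited RPM by at most 0.00585.

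One line per mature miRNA was kept (1979). The minimum for expression was an average of 10 RPM over all 4 libraries. Ratios are differences of log2(RPM + 1) from the WT mean, which understates the change of low miRNAs, and a call required at least 1.5-fold from both WT libraries on the RPM scale. With 1 library per mutant, no p-value was computed. The WT libraries are replicate cultures as the study describes them. Library totals ranged from 11410940 to 19087640 counts, and 3 counts correspond to between 0.157 and 0.263 RPM. Wilson 95% intervals cover counting error only, since reads are not independent molecules.

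Positions come from GENCODE vM21 (GRCm38) and sequences from RefSeq (GRCm38.p6). Named miRNAs are the members, their opposite arms, any miRNA with the same seed, the 3 expressed miRNAs nearest in pattern to each member, the most abundant miRNA of each list, and comparators within 2-fold of a member's WT mean. The members and lists were chosen with earlier results of these data known, and the lists rest on general knowledge without a cited source. The arm comparison over hairpins, the comparison on chromosome 11, the group with the shifted 7 bases, the remaining miRNAs named from a list or a ranking, and the alternative with whole counts were chosen after seeing the data. Alternatives were other scalings, a pseudocount of 0.1, each WT library alone, other minimum levels and other folds. Counts were rounded only for DESeq2. Functions were tested on simulated data. Tools were R 4.3.3, edgeR 4.0.16, DESeq2 1.42.0, Python 3.11.15, numpy 2.4.6, pandas 2.3.3 and matplotlib 3.10.9.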

Additional observations from a re-analysis of the deposited data

Results flagged for a closer look

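miR-148a-3p differed from the WT libraries in opposite directions in the mutants. Its log2 difference from the WT mean was -0.048 in KO and 0.16 in 3′F, below both WT libraries in the one and above both in the other. Both were smaller in size than the median absolute difference between WT B and WT A over expressed miRNAs, 0.18. For miR-148a-3p itself, WT B and WT A were 0.03 apart. With 1 library per mutant the difference was not tested, and 13.5% of expressed miRNAs also lay beyond both WT libraries in opposite directions. With DESeq2's size factors, the KO level lay between the WT libraries.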

How the results depend on the processing

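No paired analysis was possible because each mutant has 1 library, of culture replicate A, which shares its letter with WT A alone. Over the 56 alternative values of the log2 differences of the 3 members and their sum, 0 changed sign. The alternatives with 1 WT library left out could not change it, since every main value lay beyond both WT libraries. A pseudocount of 0.1 could hardly do so at these levels. Only the other scalings bear on the sign. Among the 5p strands, the 3′F difference of miR-148a-5p, -0.06, changed sign with TMM factors (0.02) and DESeq2 size factors (0.0092), and that of miR-148b-5p, -0.0049, with TMM factors (0.07), DESeq2 size factors (0.06) and WT B alone (0.04). The KO difference of miR-148a-5p moved from -0.29 to -0.36 with miR-21a-5p left out of the total. Values of the members and their sum that moved by more than the spread of the WT libraries were the following, and the cause was not tested. With TMM factors, the KO differences were 0.25 for miR-148b-3p and 0.15 for the sum, and the 3′F differences were 0.24, 0.18, 0.18 and 0.21 for miR-148a-3p, miR-148b-3p, miR-152-3p and the sum. With DESeq2 size factors, the KO differences were -0.0035, 0.32, 0.67 and 0.21 in the same order, and the 3′F differences 0.23, 0.17, 0.17 and 0.20. With miR-21a-5p left out of the total, they were -0.11, 0.21, 0.57 and 0.11 in KO, and 0.089 for miR-148b-3p and 0.12 for the sum in 3′F. With 1 line per miRNA in the total, the KO differences were 0.29 for miR-148b-3p and 0.18 for the sum. The shares of members and arms were also taken with 1 WT library left out, which gave 12 values. With 2 WT libraries, such a value cannot move beyond their SD, so these values do not test how stable the shares are. The number of miRNAs past 1.5-fold from both WT libraries, 29 in KO and 7 in 3′F, was 73 and 26 at a minimum of 1 RPM, 9 and 1 at 100 RPM, 10 and 2 at 2-fold, and 4 and 1 at 3-fold. With whole counts in every library only, chosen after seeing the data, it was 19 and 4. With 1 WT library left out, it was 45 to 47 in KO and 11 to 18 in 3′F. Depth limits the 5p strands most, with 159 counts of miR-148a-5p in WT B.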
